A study of Saccharomyces cerevisiae with 7 samples.

Results

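The comparison set 2 libraries against 2: the binding sites of Puf1 and Puf2 in yeast mRNAs against those of Puf4 and Puf5. Sites had been mapped by CLIP, in which proteins are crosslinked to RNA in living cells by ultraviolet light and the RNA that stays attached to 1 purified protein is sequenced. A site was kept where the deposited lists class it as coding sequence (CDS), 3' UTR or 5' UTR, UTR being the untranslated region, with predicted UTRs counted as UTRs. Genes were then sorted by the libraries that list them. Of 2339 genes with such an mRNA site in at least 1 of the 4 libraries, 16 were listed in both Puf1 and Puf2 and in neither Puf4 nor Puf5 (0.684% of the 2339, and 0.249% of 6021 protein-coding genes for the 15 that match a RefSeq gene). The reverse class, genes in both Puf4 and Puf5 and in neither Puf1 nor Puf2, held 257 genes (11%, and 4.24% of protein-coding genes). All 4 libraries listed 91 genes (3.89%, and 1.48% of protein-coding genes). The other genes were in 1 library or in a mixed set and are described by their counts. All 364 members of the 3 classes entered the results, with no filter on low values.

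Puf proteins are built around a domain of Pumilio repeats, each of which reads a base of a short element in single-stranded RNA. Most known elements lie in the 3' UTR, and binding there is known to affect the decay, translation and location of the mRNA. In *Saccharomyces cerevisiae*, Puf1 (gene JSN1) and Puf2 are close relatives of each other and have been linked to mRNAs of membrane proteins. Puf4 and Puf5 (gene MPT5) have been linked to mRNAs of nucleolar and nuclear proteins and to repression of their targets.

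Each library came from a haploid strain, MATa his3Δ1 leu2Δ0 met15Δ0 ura3Δ0, that carried 1 tagged gene: PUF1-TAP::HIS5, PUF2-TAP::HIS5, PUF4-TAP::HIS5 or PUF5-TAP::HIS5. All were grown at 30 °C in synthetic defined medium to mid-log phase with 200 µM 4-thiouracil, which the labels give as added when indicated. Crosslinking used 365 nm ultraviolet light in 4 doses of 150 mJ/cm2, the RNA was trimmed with RNase T1, and the TAP-tagged protein was captured on IgG beads. There was 1 library per protein, so the spread between cultures is not known and each difference compares these 4 libraries. The only test this allows is an exact permutation test of 2 libraries against 2, whose smallest two-sided p is 0.333. No untagged or uncrosslinked control was used here, and a gene that a list leaves out may still be bound.

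The lists gave each site's height in RPM, a read count scaled to a common library size, and did not give read counts, so the depth behind a value is unknown. They differed in length: Puf1 had 435 mRNA sites in 334 genes, Puf2 1028 sites in 680 genes, Puf4 1791 sites in 1118 genes and Puf5 2255 sites in 1438 genes. The median mRNA site had 1228 RPM in Puf1 and 203 RPM in Puf2, against 126 RPM in Puf4 and 119 RPM in Puf5. Levels were therefore compared between libraries as percentile ranks, in which the gene with the strongest mRNA site of its library has rank 100. Counts of shared genes were given a second time from the 435 strongest mRNA sites of each library. That setting keeps every Puf1 site, down to 1.67 RPM, but only Puf2, Puf4 and Puf5 sites above 349.9, 521.9 and 237.8 RPM.

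Genes shared by Puf1 and Puf2 were mostly also listed for Puf4 or Puf5. Of 144 genes in both Puf1 and Puf2, 91 were in both other libraries, 37 in 1 of them and 16 in neither, which is 11.1% (exact Clopper-Pearson 95% interval 6.49 to 17.4%, counting error only). Of 531 genes in both Puf4 and Puf5, 91 were in both other libraries, 183 in 1 of them and 257 in neither, which is 48.4% (44.1 to 52.7%). Puf1 shared more of its 334 genes with Puf5 (190 genes, 56.9%) and Puf4 (174 genes, 52.1%) than with Puf2 (144 genes, 43.1%). Puf2 likewise shared 364 of its 680 genes with Puf5 and 321 with Puf4. From the 435 strongest sites of each library, the 3 classes held 36, 53 and 26 genes, and 9, 38 and 26 of these were among the 16, 257 and 91. At that setting Puf1 shared 86 genes with Puf2, 86 with Puf4 and 77 with Puf5, and Puf4 shared 116 with Puf5. Puf2 shared 96 genes with Puf5 and 79 with Puf4, so that the pair of Puf2 and Puf5 stood above that of Puf1 and Puf2. Asking for a site in either library of a side and in neither of the other side gave 295 of the 6021 protein-coding genes (4.9%) for Puf1 or Puf2 and 1436 (23.8%) for Puf4 or Puf5. The size of the classes moved with the lengths of the lists, whose part in it was not tested.

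**Figure D1:**
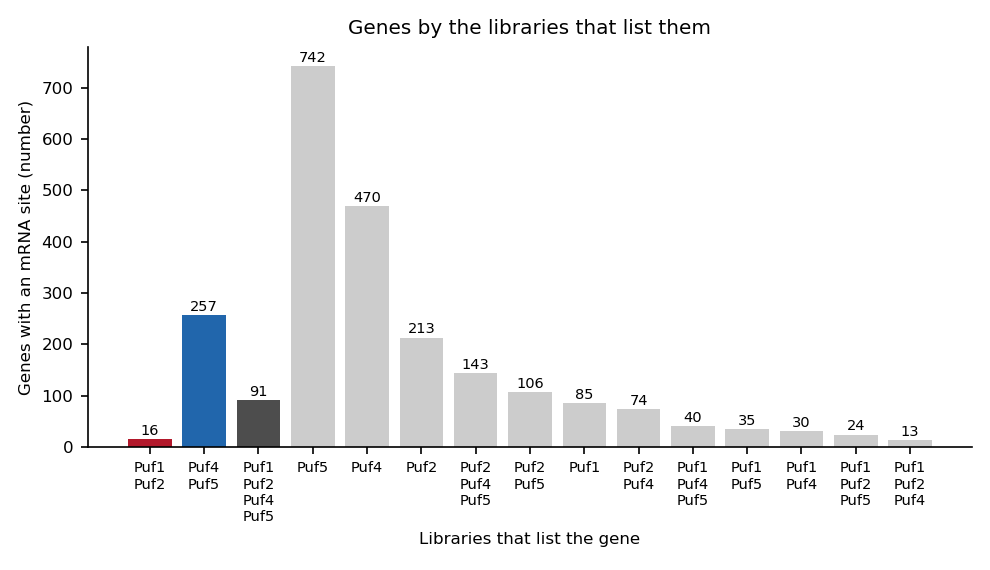
Number of genes (vertical axis) by the set of libraries that list an mRNA site for them (horizontal axis); the red bar is the class in Puf1 and Puf2, the blue bar the class in Puf4 and Puf5, the dark bar the class in all 4, and grey bars are the other sets. The red bar stands at 16 and the blue bar at 257, and the tallest bars are genes in Puf5 alone (742) and Puf4 alone (470).

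The 16 genes in Puf1 and Puf2 and in neither Puf4 nor Puf5 included GSC2, a glucan synthase subunit of the cell wall, and YPS1, a protease of the cell surface. GSC2 had 1836 RPM in Puf1 and 809 RPM in Puf2, at a 3' UTR site with the same bounds in both (sacCer3, chromosome VII, 554011 to 554036, plus strand). YPS1 had 3' UTR sites of 375 RPM in Puf1 and 728 RPM in Puf2. Both genes were in the list of cell wall genes, of which the class held 2 of 79. Of the other lists, the class held 1 cytosolic ribosomal protein gene, RPL41B, 1 nutrient transporter, FET4, and 1 gene of amino acid synthesis, GLN1, and no gene of the other 15 lists.

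Several of the 16 sites coincided between Puf1 and Puf2. PGM2, a phosphoglucomutase, had 1704 RPM in Puf1 and 810.4 RPM in Puf2 in the 3' UTR (chromosome XIII, minus strand, 475790 to 475813 in Puf1 and 475789 to 475813 in Puf2). SNT309, a splicing factor, had 156 RPM in Puf1 and 951.5 RPM in Puf2 at 1 shared 3' UTR site (chromosome XVI, 731135 to 731159, plus strand). MIG1, a repressor of glucose-repressed genes, had overlapping 3' UTR sites of 329 RPM in Puf1 and 146 RPM in Puf2, and MSS11, a transcription factor, overlapping CDS sites of 339.9 and 146 RPM. In Puf2 these 2 sites have the same RPM and length, for a cause that was not tested. With the open reading frame YBR191W-A, these were the 6 of 16 genes whose strongest sites overlapped by at least 1 nt. The YBR191W-A site (chromosome II, 607127 to 607147, plus strand), classed as predicted 5' UTR, also covers the end of the RPL21A coding bounds, which RefSeq places at 606270 to 607140. It had 1532 RPM in Puf1 and 586 RPM in Puf2, and reads of the 2 transcripts cannot be told apart there.

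In the other 10 genes the strongest sites lay apart. SOD1, the copper-zinc superoxide dismutase, was the highest of the 16 in Puf1, with 12119.5 RPM in the 5' UTR (chromosome X, 623012 to 623034, minus strand), whereas Puf2 had 144 RPM in its 3' UTR. GLN1, glutamine synthetase, had 953 RPM in the 5' UTR in Puf1 and 825 RPM in the 3' UTR in Puf2. FET4, an iron transporter, had 1168 RPM in the 5' UTR in Puf1 and 113 RPM in the CDS in Puf2. TRR1, thioredoxin reductase, had 1322 RPM in Puf1 and 651 RPM in Puf2, both in the 3' UTR, and CPT1, a phospholipid enzyme, 1254 and 725 RPM in the CDS. SDD3 also had CDS sites that lay apart, of 349 RPM in Puf1 and 159.5 RPM in Puf2. In these 6 genes no Puf1 site overlapped a Puf2 site.

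PUF2 mRNA was itself a member. It had 1 CDS site near the stop codon in Puf1 with 366 RPM (chromosome XVI, 650501 to 650534, minus strand) and in Puf2 an overlapping site of 129 RPM (650501 to 650538) beside the strongest of 641 RPM (650656 to 650683). MPT5, which encodes Puf5, was in the opposite class, with 539 RPM in Puf4 and 132 RPM in Puf5. PUF6 was there too, with 1.22 and 102 RPM.

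ECM9 had 1318 RPM in Puf1 but 2.3 RPM in Puf2, and RPL41B 35.0 RPM in Puf1 and 226 RPM in Puf2. Just outside stood PMP2, a proteolipid that regulates the plasma membrane proton pump, with 2017 RPM in Puf1 and 3553 RPM in Puf2, which was left out for a Puf5 site of 79.1 RPM. TPO2, a polyamine exporter, was left out in the same way by 118 RPM in Puf5, against 8413 RPM in Puf1 and 6837 RPM in Puf2. YRO2, a membrane protein, was left out by 87.5 RPM in Puf5, against 3234 RPM in Puf1 and 4218 RPM in Puf2. Among the 36 genes of the class from equal numbers of sites, TPO2 and YRO2 had the highest mean rank, and TPO1 and TPO3 were also there. In all, the 16 genes held 3.91% of the mRNA RPM of Puf1 and 1.51% of that of Puf2, and their median rank was 42.8 in Puf1 and 67.1 in Puf2.

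**Figure D2:**
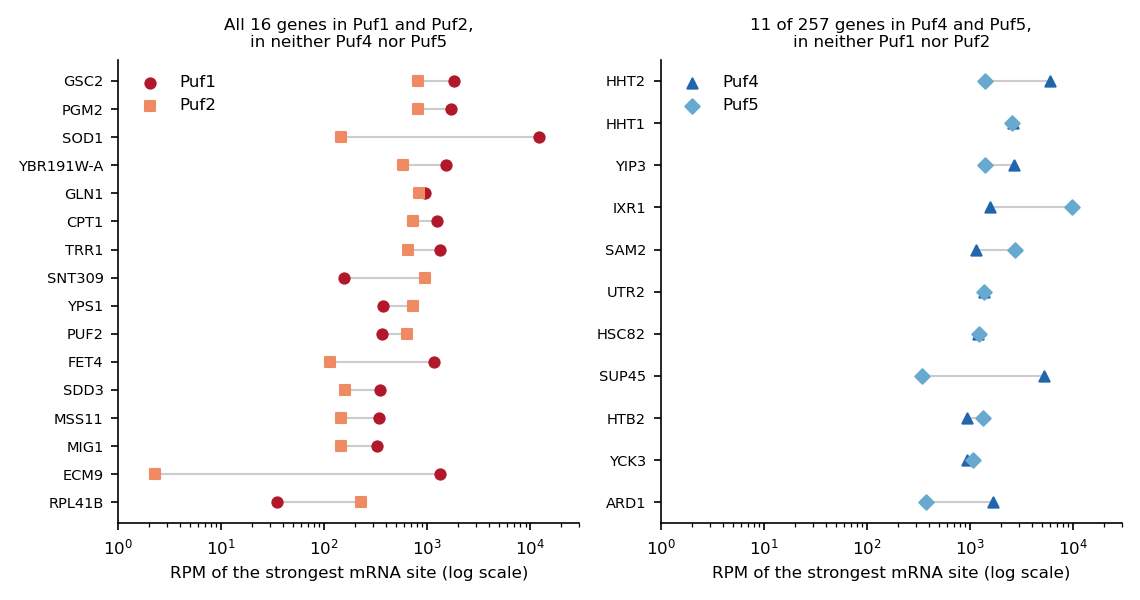
RPM of the strongest mRNA site (horizontal axis, log scale) of each gene (vertical axis), with the 16 genes in Puf1 and Puf2 on the left and 11 of the 12 genes of highest mean rank among the 257 in Puf4 and Puf5 on the right; each point is 1 library, and there are no error bars because each protein has 1 library. SOD1 and ECM9 have the widest gaps between Puf1 and Puf2, with 12119.5 against 144 RPM and 1318 against 2.3 RPM.

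The 257 genes in Puf4 and Puf5 and in neither Puf1 nor Puf2 were led by histone genes. HHT2, a histone H3 gene, had 5983 RPM in Puf4 and 1416 RPM in Puf5 at 3' UTR sites that overlap (chromosome XIV, minus strand, 575391 to 575420 in Puf4 and 575394 to 575419 in Puf5). HHT1, the other histone H3 gene, had 2608 RPM in Puf4 (chromosome II, 256844 to 256866, plus strand), where Puf5 had the same bounds with 1643 RPM beside its strongest site of 2568 RPM (256787 to 256810). HTB2, a histone H2B gene, had 936 and 1357 RPM in Puf4 and Puf5, and HTA2, a histone H2A gene, 511 and 114 RPM. These were 4 of the 10 histone genes, 1.57% of the class against 0.166% of all protein-coding genes. Over all genes of Puf4 and of Puf5, histone genes were 0.716% (8 genes) and 0.695% (10 genes).

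Outside the histones, the strongest members were spread over several functions. IXR1, a DNA-binding protein, had 1565 RPM in Puf4 and 9789 RPM in Puf5 at 1 site with the same bounds (chromosome XI, 380023 to 380046, minus strand). SUP45, the translation release factor, had 5202 RPM in Puf4 and 341 RPM in Puf5 (chromosome II, minus strand, 530761 to 530783 in Puf4 and 530761 to 530779 in Puf5). YIP3, a protein of the secretory pathway, had 2703 and 1397 RPM, SAM2, an S-adenosylmethionine synthetase, 1138 and 2759 RPM, and UTR2, a cell wall transglycosylase, 1377 and 1385 RPM. HSC82, an Hsp90 chaperone, had 1199 and 1217 RPM, YCK3, a casein kinase of the vacuole, 942 and 1072 RPM, and ARD1, an N-terminal acetyltransferase, 1668 and 378 RPM, each pair in Puf4 and Puf5. All 11 leading genes named here had their strongest site in the 3' UTR in both libraries. The strongest sites overlapped in 61 of the 257 genes (23.7%), against 6 of 16 (37.5%) in the Puf1 and Puf2 class, and the 2 intervals (18.7 to 29.4% and 15.2 to 64.6%) overlap.

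By function, the class held 15 of 161 genes of nucleolar ribosome biogenesis (5.88% of the class, against 2.67% of all protein-coding genes), led by UTP22 (2776 and 225 RPM in Puf4 and Puf5), RRP9 (1008 and 186 RPM) and NOP1 (778 and 267 RPM). Neither the 16 nor the 91 held any gene of that list. The class also held 8 of 105 chromatin genes (3.14% against 1.74%), led by STH1, the ATPase of the RSC remodeller (754 RPM in Puf4 and 2069.9 RPM in Puf5). There were 18 of 137 cytosolic ribosomal protein genes (7.06% against 2.28%), led by RPL9B (5015 and 228 RPM), and 9 of 79 cell wall genes (3.53% against 1.31%). Amino acid synthesis had 8 of 95 genes (3.14% against 1.58%) and nuclear genes of oxidative phosphorylation 6 of 43 (2.35% against 0.714%). Over all genes of Puf4 and of Puf5, ribosomal protein genes were 10.2% and 7.30%, and amino acid genes 3.58% and 2.16%. Cell wall genes were 3.04% and 3.20%, nucleolar genes 4.29% and 2.43%, chromatin genes 1.88% and 2.16%, and oxidative phosphorylation genes 1.16% and 1.11%. The class thus stood below both libraries in ribosomal protein genes, between them in amino acid genes and above both in the others. Among the 53 genes of the class from equal numbers of sites, these lists had 2 nucleolar, 2 chromatin, 9 ribosomal protein, 2 cell wall, 3 amino acid and 0 oxidative phosphorylation genes, and 3 histone genes. The other 12 lists without the histones had 1 to 6 members each. In all, 114 of the 257 genes (44.4%) were in at least 1 of the 19 lists, against 5 of 16 (31.3%) in the Puf1 and Puf2 class and 1346 of 6021 protein-coding genes (22.4%). The class held 23.5% of the mRNA RPM of Puf4 and 17% of that of Puf5.

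Of the 183 genes in both Puf4 and Puf5 and in 1 other library, some were left out by a weak site. DNF1, a lipid flippase, was left out for a Puf1 site of 1.84 RPM, beside 889.96 RPM in Puf4 and 144 RPM in Puf5. GCN4, the regulator of amino acid synthesis, was left out for a Puf2 site of 2.3 RPM, beside 149 RPM in Puf4 and 87.9 RPM in Puf5. Others had a stronger one, such as RPL18B, a ribosomal protein gene, with 299.99 RPM in Puf2 (rank 50.4), beside 3418 RPM in Puf4 and 959 RPM in Puf5. Among the weakest members inside it was TAH1, with 0.98 RPM in Puf4 and 15.7 RPM in Puf5. Some members share sequence with another gene: CUP1-1 and CUP1-2 were listed with identical values, and 70 of the 257 genes had a site whose RPM and length recur in another gene of the library. Without such sites, which could be counted at more than 1 copy, the classes held 16, 230 and 78 genes, of which 14, 220 and 78 were members above. MIG1 and MSS11 were lost from the class of 16.

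The classes differed in mRNA level, taken from the authors' deposited RPKM (RPM per kilobase of gene) of a puf3Δ strain, BY4742, of the opposite mating type, which is 1 column for 2 samples. The median RPKM was 124 in the Puf1 and Puf2 class (15 genes with a value and a RefSeq match), 121 in the Puf4 and Puf5 class (253 genes) and 1310 in the class in all 4 (88 genes), against 56.0 over 5880 protein-coding genes. Over the 2256 such genes with a site in any of the 4 libraries it was 103, close to the first 2 classes. In the classes from equal numbers of sites it was 439, 392 and 1094. Genes in all 4 were thus mostly abundant mRNAs: 54 of 88 had over 1000 RPKM, against 184 of 5880. The RPKM cannot stand for the CLIP strains at mating genes: MFA1 and MFA2, the a-factor genes, were in all 4 CLIP libraries and had 1.35 and 1.11 RPKM. Median gene length, from the RefSeq coding bounds, was 1515 nt, 1404 nt and 1001 nt in the 3 classes. It was 1203 nt over all protein-coding genes and 1335 nt over those with a site in any of the 4 libraries.

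The 91 genes in all 4 libraries took 49.7% of the mRNA RPM in Puf1 and 41.7% in Puf2, against 26.1% in Puf4 and 18.0% in Puf5. TDH3, the main glycolytic glyceraldehyde-3-phosphate dehydrogenase, had 26925 RPM in Puf1 and 7626 RPM in Puf2, against 49293 RPM in Puf4 and 2937 RPM in Puf5, with 1 shared 3' UTR site (chromosome VII, 882728 to 882750 in Puf2 and 882727 to 882750 in the others, minus strand). HSP150, a cell wall protein, had 12272 and 4572 RPM in Puf1 and Puf2, against 2773 and 2086 RPM in Puf4 and Puf5. CCW12, a cell wall mannoprotein, had 4512 and 2577 RPM in Puf1 and Puf2, against 2407.5 and 1673 RPM in Puf4 and Puf5, all in the 5' UTR. With TEF2, HXT7 and YDR524C-A, these were the 6 genes whose 4 strongest sites shared at least 1 nt. SED1, a cell wall protein, had 6518 and 6118 RPM in Puf1 and Puf2, against 2282 and 785 RPM in Puf4 and Puf5. LSP1, a core protein of eisosomes, had 3181 and 8048 RPM in Puf1 and Puf2, against 1273 and 1574 RPM in Puf4 and Puf5. YDR133C, an open reading frame with no RefSeq match, was highest in Puf5, with 8228 RPM, and had 1713, 1687 and 1318 RPM in Puf1, Puf2 and Puf4. CWP2, YDR524C-B, PMA1, SAH1, YDR524C-A and DSE2 completed the 12 of highest mean rank. Of the 91, 27 were cytosolic ribosomal protein genes, 10 translation factors, and 7 each cell wall genes, glycolytic genes and genes of the list of proton pump, proteolipids and membrane domains.

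Sites within these 91 genes coincided only in part. Of 157 Puf1 sites, 67 overlapped a Puf2 site by at least 1 nt (42.7%, exact 95% interval 34.8 to 50.8%), 39 a Puf4 site (24.8%, 18.3 to 32.4%) and 58 a Puf5 site (36.9%, 29.4 to 45.0%). Of 253 Puf2 sites, 68 overlapped a Puf1 site (26.9%), 62 a Puf4 site (24.5%) and 90 a Puf5 site (35.6%). Puf2 thus shared more positions with Puf5 than with Puf1, whose list is shorter. Of 343 Puf4 sites, 68 overlapped a Puf5 site (19.8%, 15.7 to 24.4%) and 65 a Puf2 site (18.95%). Of 265 Puf5 sites, 69 overlapped a Puf4 site (26.0%), 89 a Puf2 site (33.6%) and 59 a Puf1 site (22.3%). By position, then, the shares of Puf4 and Puf5 with Puf2 were close to or above those with each other. The strongest site lay in the 3' UTR in 52 of the 91 genes in Puf1 and 48 in Puf2, against 45 in Puf4 and 72 in Puf5.

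Within the 91, some genes separated the sides by rank. Puf1 and Puf2 both ranked a gene above Puf4 and Puf5 in 12 of 91 genes (13.2%), and Puf4 and Puf5 both above Puf1 and Puf2 in 24 (26.4%), while the sides overlapped in 55. The median rank of the 91 genes was 64.4 in Puf1 and 75.8 in Puf2, against 81.2 in Puf4 and 83.1 in Puf5, in the order of the lengths of the lists, so the 2 counts cannot be compared with each other. From the 435 strongest sites of each library, 9 of 26 genes stood above in Puf1 and Puf2 and 4 in Puf4 and Puf5. The other ways of pairing the 4 libraries gave 11 and 22 genes (Puf1 with Puf4 above, or Puf2 with Puf5 above) and 6 and 16 genes (Puf1 with Puf5 above, or Puf2 with Puf4 above). The 12 were YCR024C-B, MRH1, SED1, PMA1, ZRT1, HSP150, CWP2, PDC1, CTS1, BRE5, RPL33A and NCE102. The pairing by side was thus close in number to the pairing of Puf1 with Puf4 and Puf2 with Puf5. Across the 91 genes, Spearman's correlation of the RPM ranks was 0.40 between Puf1 and Puf2 and 0.32 between Puf4 and Puf5, and across the sides it was 0.17, 0.17, 0.13 and 0.36 (Puf1 with Puf4, Puf1 with Puf5, Puf2 with Puf4 and Puf2 with Puf5). These are descriptions over genes, which are not replicates.

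Of the 12 genes above in Puf1 and Puf2, 8 were in the lists of cell wall, transporter or membrane domain genes, which hold 17 of the 91. The lists were chosen with earlier results of these data known, so this count is a description and no independent support. PMA1, the proton pump of the plasma membrane, had 28212 RPM in Puf1 and 14973 RPM in Puf2, the strongest mRNA site of both, against 759 RPM in Puf4 and 427 RPM in Puf5, ranks of 74.7 and 88.0. MRH1, a plasma membrane protein, had 7312 and 4874 RPM in Puf1 and Puf2, against 176 and 1343 RPM in Puf4 and Puf5. CTS1, the chitinase that separates daughter cells, had 5781 and 3437 RPM in Puf1 and Puf2, against 109.9 and 398 RPM in Puf4 and Puf5. NCE102, an eisosome protein, had 3881 and 1315 RPM in Puf1 and Puf2, against 265 and 329.8 RPM in Puf4 and Puf5. Of the 7 membrane domain genes, 5 had a higher mean rank in Puf1 and Puf2, 3 stood clear of both other libraries and 0 stood below them. Of the 7 cell wall genes, 4 stood above and 1 below, and of the 3 transporters 1 stood above and 2 below.

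The largest difference towards Puf1 and Puf2 was in RPL33A. This ribosomal protein gene had 2348 RPM in Puf1 and 1899 RPM in Puf2, against 158 RPM in Puf4 and 37.5 RPM in Puf5. Its mean rank was 62.9 points higher in Puf1 and Puf2. ENO2, an enolase, followed with 40.8 points, with 7476 and 1409.7 RPM in Puf1 and Puf2, against 2215 and 75.8 RPM in Puf4 and Puf5, so that Puf5 was far lower than Puf4. CTS1 (37.1 points), HSP104 (36.0), DYS1 (32.9), CYS4 (32.9), ZRT1 (31.4), BRE5 (28.9), PDC1 (26.3) and YCR024C-B (26.3) made up the 10 largest. HSP104 and DYS1 were far higher in Puf1 than in the other libraries. HSP104, a disaggregase, had 3451 RPM in Puf1 and 134 RPM in Puf2, against 123 RPM in Puf4 and 67.6 RPM in Puf5. The YCR024C-B site of Puf1 and Puf2 (chromosome III, 163065 to 163085, minus strand) lies at the edge of the coding bounds of PMP1, which RefSeq places at 162945 to 163067. PMP1 encodes a proteolipid of the proton pump, and the 2 transcripts cannot be told apart at this site.

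Of the 24 genes above in Puf4 and Puf5, 10 were cytosolic ribosomal protein genes, which are 27 of the 91, and 3 translation factors, which are 10 of the 91. APE3, a vacuolar aminopeptidase, had 141 RPM in Puf1 and 170.0 RPM in Puf2, against 2522 RPM in Puf4 and 964 RPM in Puf5, a mean rank 68.6 points lower in Puf1 and Puf2. Its Puf4 and Puf5 sites shared their start (chromosome II, 776333 to 776354 in Puf4 and 776333 to 776355 in Puf5, plus strand), and the Puf2 site (776336 to 776365) lay on them. RPS12, a ribosomal protein gene, had 47.5 and 6.89 RPM in Puf1 and Puf2, against 497 and 251 RPM in Puf4 and Puf5. PET9, the mitochondrial ADP/ATP carrier, had 4.18 and 117 RPM in Puf1 and Puf2, against 1203 and 141 RPM in Puf4 and Puf5. CDC19, pyruvate kinase, had 429 and 208 RPM in Puf1 and Puf2, against 1782 and 376 RPM in Puf4 and Puf5. All its Puf1 and Puf2 sites were in the CDS, while Puf4 and Puf5 shared the bounds of a 3' UTR site (chromosome I, 73361 to 73383, plus strand), the strongest of Puf4 and with 246.7 RPM in Puf5. RPS9B, RPS15, RPS1B, ILV5, EFB1 and TEF4 completed the 10 largest, with differences of -58.0, -52.1, -48.5, -46.7, -45.4 and -44.8 points. EFB1 was low in Puf1 alone, with 4.18 RPM against 899 RPM in Puf2.

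As groups, 6 of 27 cytosolic ribosomal protein genes and 2 of 10 translation factors had a higher mean rank in Puf1 and Puf2. Of the ribosomal protein genes, 1 stood above and 10 below both other libraries, and of the translation factors 0 above and 3 below. The median difference was -20.1 points for the ribosomal protein genes and -29.2 points for the translation factors, against -6.17 points for all 91. It was 4.59 points for the membrane domain genes and 1.27 points for the cell wall genes. Larger positive medians stood in 5 genes of fatty acid, sterol and sphingolipid synthesis (10.2 points) and in the 7 glycolytic genes (8.87 points). The 3 transporters had -9.19 points and the 4 genes of amino acid synthesis -9.55 points. Some of these genes have near-identical copies (TEF1 and TEF2, EFT1 and EFT2, ENO1 and ENO2) among which reads could be split or shared, and their single values are uncertain.

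**Figure D3:**
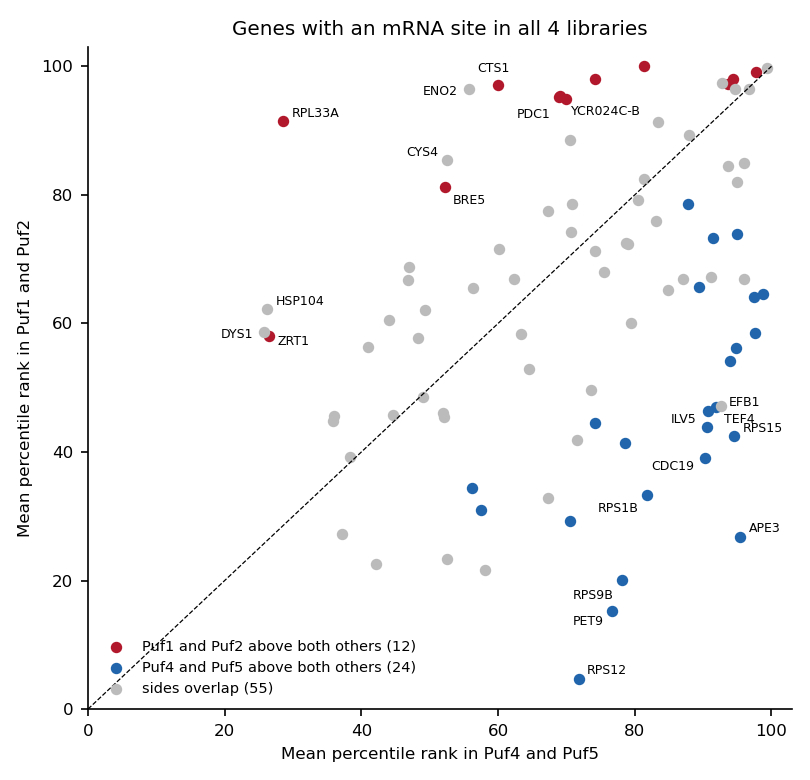
Mean percentile rank in Puf1 and Puf2 (vertical axis) against mean percentile rank in Puf4 and Puf5 (horizontal axis) of the 91 genes in all 4 libraries, 1 point a gene, with the line of equal ranks; names mark the 10 largest differences in each direction. RPL33A lies farthest above the line and APE3 farthest below it; 12 red points have both Puf1 and Puf2 above both other libraries, 24 blue points the reverse, and 55 grey points overlap.

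The libraries also differed in where on the mRNA their signal lay. Weighted by RPM, the 5' UTR held 16.7% of the mRNA RPM in Puf1 and 18.0% in Puf2, against 5.34% in Puf4 and 5.89% in Puf5. The sides did not overlap, the difference of their means was 11.8 percentage points, and the two-sided exact permutation p was 0.333, the smallest possible. The 3' UTR held 64.0% in Puf1 and 55.8% in Puf2, against 69.3% in Puf4 and 79.8% in Puf5, a difference of -14.7 points with the same p of 0.333. The CDS share overlapped, with 19.3% and 26.2% in Puf1 and Puf2, against 25.4% and 14.3% in Puf4 and Puf5 (p = 0.667, exact permutation test). Weighting by RPM was chosen after the data were seen.

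Counted over all sites, the sides overlapped in all 3 features. The 5' UTR held 10.3% of the mRNA sites of Puf1 and 9.14% of those of Puf2, against 4.52% in Puf4 and 9.36% in Puf5 (difference 2.80 points, exact permutation p = 0.667). The 3' UTR held 44.6% and 32.4% in Puf1 and Puf2, against 30.2% and 59.2% in Puf4 and Puf5 (difference -6.18 points, exact permutation p = 1). The CDS held 45.1% and 58.5% in Puf1 and Puf2, against 65.3% and 31.4% in Puf4 and Puf5 (difference 3.38 points, exact permutation p = 1). In the 3' UTR and CDS shares Puf4 and Puf5 lay at the opposite ends and Puf1 and Puf2 between them. From the 435 strongest sites of each library the 3' UTR shares were 44.6% and 57.7% in Puf1 and Puf2, against 70.6% and 83.9% in Puf4 and Puf5 (exact permutation p = 0.333), but from the 50% strongest they were 61.8% and 53.1% in Puf1 and Puf2, against 45.9% and 68.2% in Puf4 and Puf5. The 5' UTR shares did not overlap at either setting. They were 10.3% and 15.6% in Puf1 and Puf2, against 7.82% and 6.90% in Puf4 and Puf5, from the 435 strongest sites, and 15.7% and 14.8% in Puf1 and Puf2, against 6.26% and 7.81% in Puf4 and Puf5, from the 50% strongest (exact permutation p = 0.333 for each). Of the 5' UTR sites, the median had 1680 RPM in Puf1 and 635 RPM in Puf2, against 279 RPM in Puf4 and 109 RPM in Puf5. The median of all mRNA sites was 1228, 203, 126 and 119 RPM in the same order, so these values cannot be compared between libraries. Within its own library the 5' UTR median lay above that of all mRNA sites in Puf1, Puf2 and Puf4 and below it in Puf5.

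A 5' UTR site in both Puf1 and Puf2 was listed for 17 genes, of which 10 were in the lists of cell wall, transporter or membrane domain genes. These 3 lists, chosen with earlier results of these data known, together hold 216 of 6021 protein-coding genes (3.59%). Of all mRNA genes they held 10.5% in Puf1 and 9.56% in Puf2, against 5.90% in Puf4 and 6.88% in Puf5. Of the 91 genes in all 4 libraries, to which 13 of the 17 belong, they held 18.7%. Over all genes with a 5' UTR site the 3 lists held 11 of 37 in Puf1 and 18 of 75 in Puf2, against 8 of 76 in Puf4 and 25 of 170 in Puf5. Of the genes with a 5' UTR site over 1000 RPM they held 11 of 31 in Puf1 and 9 of 13 in Puf2. That cut kept 37 of 45 sites in the 5' UTR in Puf1, whose median mRNA site had 1228 RPM, but 19 of 94 in Puf2. The 2 shares are therefore not of like sites. Puf1 also had 5' UTR sites on mRNAs outside these lists, among them SOD1 with 12119.5 RPM and ENO2 with 7476 RPM. Puf4 and Puf5 shared a 5' UTR site in 15 genes, of which 3 were in those lists, and CCW12, NCE102 and YCR024C-B were in both sets. These 2 sets were looked at after the feature shares were seen. Of the 17, 11 had no 5' UTR site in Puf4 and 4 none in Puf5. The median 5' UTR site of the 17 stood at rank 91.3 among the mRNA sites of Puf1 and 96.4 among those of Puf2. That of the 15 genes stood at rank 89.9 in Puf4 and 74.2 in Puf5.

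TPO2 had 8413 RPM in Puf1 and 6837 RPM in Puf2 in its 5' UTR, against no mRNA site in Puf4 and 118 RPM in Puf5. PMA1 had 5' UTR sites that overlap, of 2857 and 9943 RPM in Puf1 and Puf2, against none in Puf4 and 132 RPM in Puf5. They lie on the minus strand of chromosome VII, at 482799 to 482821 in Puf1 and 482818 to 482838 in Puf2, against 482816 to 482838 in Puf5. MRH1 had 7312 and 3311 RPM in Puf1 and Puf2, against none in Puf4 and 177 RPM in Puf5. Its relative YRO2 had 3234 and 4218 RPM in Puf1 and Puf2, against none in Puf4 and 87.5 RPM in Puf5. In these 4 genes Puf5 was thus listed in the same UTR, at a far lower RPM on its own scale: its site stood at rank 49.1 in TPO2, 61.0 in PMA1, 73.9 in MRH1 and 23.8 in YRO2 among Puf5 mRNA sites.

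The 5' UTR site of CTS1 ended 1 nt before the start codon in Puf1, with 5781 RPM, and directly before it in Puf2, with 3437 RPM, against none in Puf4 and 276 RPM in Puf5, where it ended 2 nt before it. Positions are good to 1 nt, since the files do not say whether they count from 0. CWP2, a cell wall mannoprotein, had 2851 RPM in Puf1 and 1618 RPM in Puf2 at 1 site, 23 nt before the start codon in each (chromosome XI, 259208 to 259229, plus strand), against none in Puf4 and 124 RPM in Puf5 (259207 to 259229). ZEO1, a protein of the plasma membrane, had 1313 RPM in Puf1 and 2008 RPM in Puf2, against none in Puf4 and 11.3 RPM in Puf5. In CCW12 all 4 libraries had the 5' UTR site, with 4512 and 2577 RPM in Puf1 and Puf2, against 2407.5 and 1673 RPM in Puf4 and Puf5, so the 5' UTR of a cell wall gene was not listed for Puf1 and Puf2 alone.

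Of the 15 genes with a 5' UTR site in both Puf4 and Puf5, 12 had none in Puf1 and 8 none in Puf2. PEP4, the vacuolar protease, had 1 site (chromosome XVI, 261027 to 261055, minus strand) with 2487 RPM in Puf4 and 3268 RPM in Puf5, the strongest 5' UTR site of both, against no 5' UTR site in Puf1 and 466 RPM in Puf2 at another position. ATP20, a subunit of ATP synthase, had 279 RPM in Puf4 and 1352 RPM in Puf5, with no mRNA site in Puf1 or Puf2. MSO1, a factor of vesicle fusion, had 1649.7 and 167 RPM in Puf4 and Puf5, SBE2, of bud growth, 936 and 453 RPM, and XRN1, the cytoplasmic exonuclease, 654 and 337 RPM, all with no site in Puf1 or Puf2. In 12 of the 17 genes of Puf1 and Puf2, and in 12 of the 15 of Puf4 and Puf5, the 2 strongest 5' UTR sites overlapped.

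**Figure D4:**
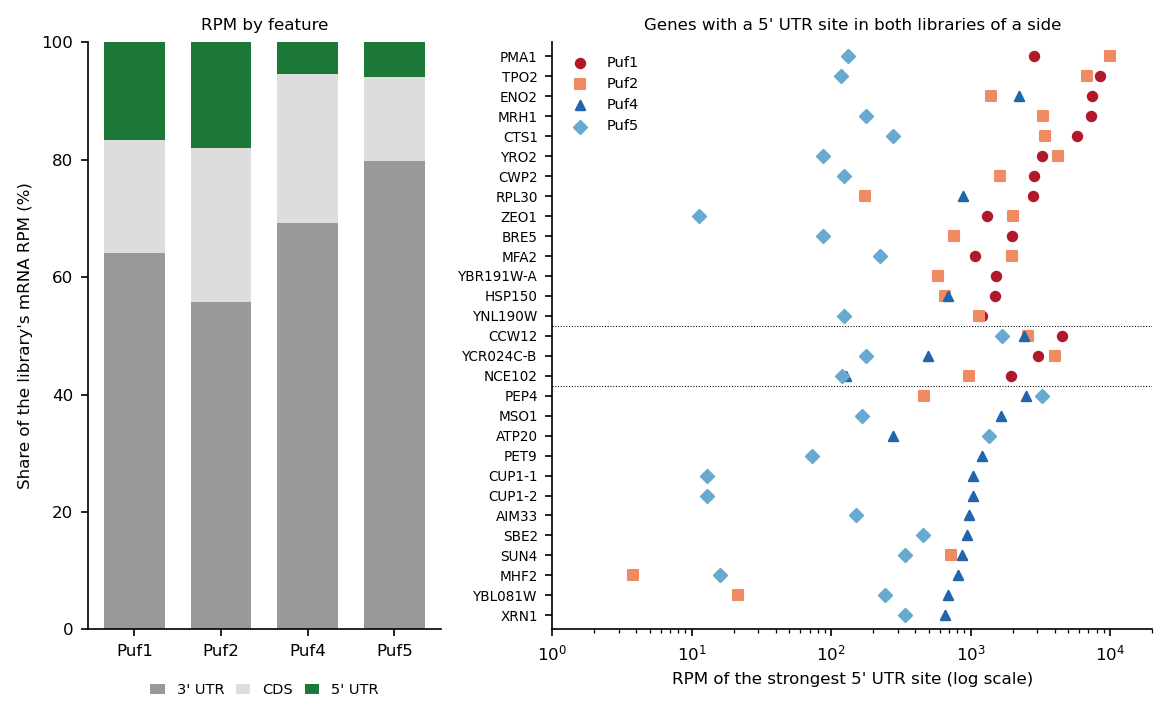
Left, share of each library's mRNA RPM (vertical axis, percent) in the 3' UTR, CDS and 5' UTR; right, RPM of the strongest 5' UTR site (horizontal axis, log scale) of the 29 genes (vertical axis) with a 5' UTR site in both Puf1 and Puf2 (above the first dotted line), in all 4 (between the lines) or in both Puf4 and Puf5 (below), 1 point a library. The 5' UTR takes 16.7% and 18.0% in Puf1 and Puf2, against 5.34% and 5.89% in Puf4 and Puf5. For PMA1, TPO2, MRH1, CTS1 and YRO2 the Puf1 and Puf2 points lie right of the Puf5 points. The lowest of these is PMA1 in Puf1 (2857 RPM) and the highest Puf5 point CTS1 (276 RPM). RPM cannot be compared between libraries, and by rank the Puf5 sites of MFA2, YNL190W and CCW12 stood above those of Puf1.

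Functions were also compared over all genes of each library. Of 19 gene lists, 6 took a larger share of the genes in Puf1 and in Puf2 than in Puf4 and in Puf5 (31.6%), and 6 a smaller share in both (31.6%). Each such difference has the smallest possible exact permutation p of 0.333. Cytosolic ribosomal proteins were 16.5% of the genes of Puf1 and 12.5% of those of Puf2, against 10.2% in Puf4 and 7.30% in Puf5. These shares fell as the site lists grew longer, whose part in it was not tested. Plasma membrane transporters were 3.89% and 3.38% in Puf1 and Puf2, against 1.88% and 2.36% in Puf4 and Puf5, and 1.74% of all protein-coding genes. Nucleolar ribosome biogenesis genes were 1.20% and 1.32% in Puf1 and Puf2, against 4.29% and 2.43% in Puf4 and Puf5, and 2.67% of all genes.

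From the 435 strongest sites of each library, 3 lists were higher on the side of Puf1 and Puf2 (15.8%) and 5 on that of Puf4 and Puf5 (26.3%). Each again has the smallest possible exact permutation p of 0.333. Counts for the other pairings of the libraries are not given, so these counts cannot be called particular to this pairing. For ribosomal proteins the sides overlapped, with 16.5% and 13.4% in Puf1 and Puf2, against 14.3% and 15.6% in Puf4 and Puf5. Glycolysis and fermentation genes kept the direction, with 3.29% and 2.80% in Puf1 and Puf2, against 2.04% and 0.92% in Puf4 and Puf5. In number they were 11 and 9 genes against 8 and 3. Transporters also kept it, with 3.89% and 4.36% in Puf1 and Puf2, against 3.06% and 3.37% in Puf4 and Puf5. Their numbers were close, at 13 and 14 genes against 12 and 11. Histone genes were 1 and 4 of 10 in Puf1 and Puf2, against 7 and 8 of 10 in Puf4 and Puf5. Cytosolic chaperones were 3 and 2 genes in Puf1 and Puf2, against 9 and 5 in Puf4 and Puf5. Nucleolar genes numbered 4 and 0 in Puf1 and Puf2, against 23 and 4 in Puf4 and Puf5, and the shares of Puf1 and Puf5 were close, at 1.20% and 1.23%.

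**Figure D5:**
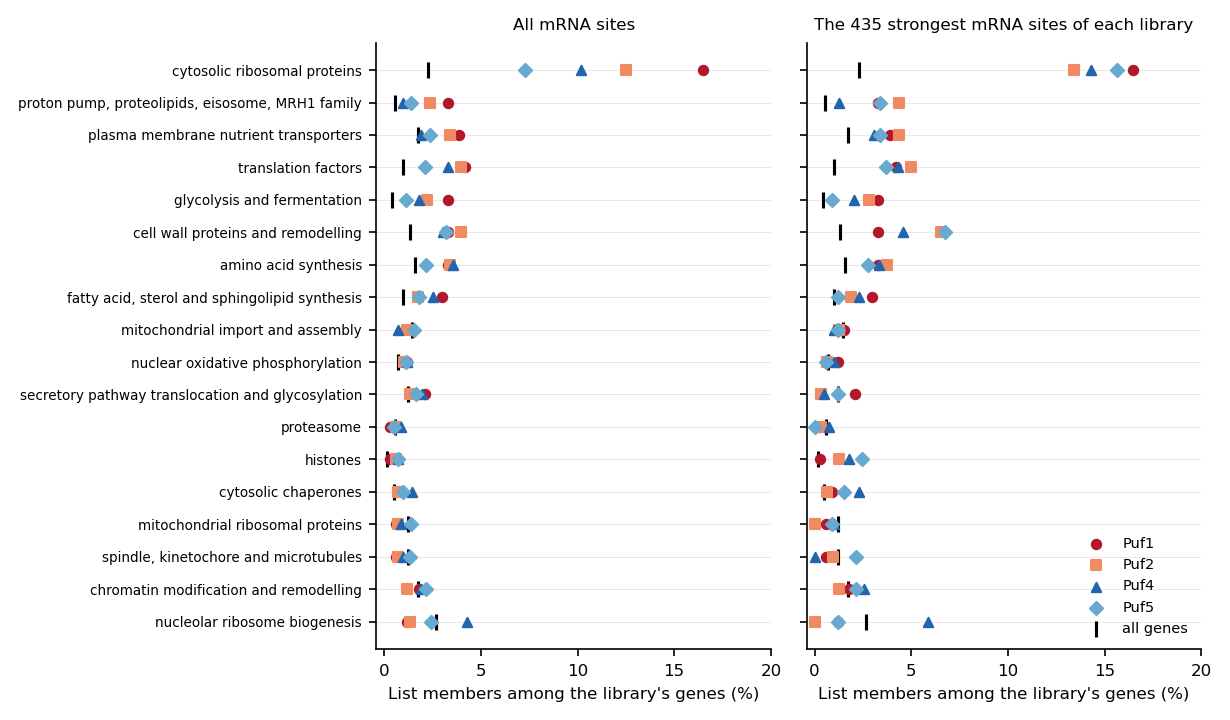
Share of each library's genes (horizontal axis, percent) in each of 18 of the 19 gene lists (vertical axis), from all mRNA sites (left) and from the 435 strongest of each library (right); coloured points are the 4 libraries and the black bar is the share of the list among all protein-coding genes. On the left the Puf1 and Puf2 points lie right of the Puf4 and Puf5 points in 6 lists and left of them in 6; on the right they do so in 3 and 5.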

How the data were processed

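The 4 CLIP libraries are lists of sites called by the authors, who deposited the RPM of each site beside its coordinates, gene and feature. The mRNA level is the authors' deposited RPKM, given once for 2 mRNA-seq samples. CASAVA 1.8.2, Bowtie 0.12.7 and the sacCer3 build were used, per the submitters' processing notes. Not given in the sources used here were the site caller, its threshold, the UTR annotation, the RPM divisor, the handling of reads with several matches and the base from which positions count. RPM was not divided by mRNA level or gene length.

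Sites classed as CDS, 3' UTR or 5' UTR, predicted UTRs included, were kept, and a gene's level in a library was the RPM of its strongest site. Percentile ranks ran over all genes of the library. Of 2339 gene names, 2283 matched a protein-coding gene of a RefSeq table (R64), which gave symbols and coding bounds, and 56 did not and kept their deposited name. Of 6550 RPKM rows, 5880 matched. Intervals of shares are exact Clopper-Pearson 95% intervals and cover counting error only. The 2 libraries of a side were compared with the other 2 by an exact two-sided permutation test. Members and the 19 gene lists were chosen with earlier results of these data known. The text names the 12 genes of highest mean rank per class, the 10 largest rank differences in each direction among genes in all 4, and up to 3 leading members of each list; 1 such gene and 1 list are not reported here. Genes just outside the classes, the PUF genes and the 5' UTR genes were chosen after their values were seen, as were the RPM-weighted shares and the list shares of whole libraries. Alternatives were the 50% of sites of highest RPM, an equal number of sites per library, 1 feature class alone, no predicted UTRs, no copies, summed RPM and each library left out. Scripts were tested on simulated data. Motifs and protein features were not analysed here, since no genome or protein sequence was used. Python 3.11.15, pandas 2.3.3, numpy 2.4.6, scipy 1.17.1 and matplotlib 3.10.9 were used.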

Additional observations from a re-analysis of the deposited data

Results flagged for a closer look

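The Puf6 library of the same study, which entered no comparison above, also listed mRNA sites in genes of the 3 classes. It had sites in 3 of the 16 genes in Puf1 and Puf2 (GSC2, CPT1 and RPL41B), in 39 of the 257 genes in Puf4 and Puf5 (15.2%, exact 95% interval 11.0 to 20.2%) and in 40 of the 91 genes in all 4 (44.0%, 33.6 to 54.8%). Over the 2339 genes with a site in any of the 4 libraries the share was 11.7% (274 genes). That share lies inside the interval of the 257 genes and below that of the 91. No control library was used here. The 40 genes included PMA1, TDH3, CCW12, HSP150 and SED1, and their mRNA level was not taken into account.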

How the results depend on the processing

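No paired analysis was possible because each protein has 1 library and the replicate numbers pair nothing. Class sizes were 16, 257 and 91 genes in the order of the report. The 50% strongest sites gave 149 genes in Puf4 and Puf5 and 35 in all 4, an equal number of sites per library gave 36, 53 and 26, 3' UTR sites alone gave 156 in Puf4 and Puf5 and 28 in all 4, and coding sites alone gave 7, 91 and 24. Of the settings chosen after seeing the data, a site in either library of a side gave 314 and 1469, and the 300 strongest genes per library gave 34, 42 and 23. Leaving out each library in turn gave 29 to 229 genes for Puf1 and Puf2 (229 without Puf1), 297 to 999 for Puf4 and Puf5 (999 without Puf4) and 104 to 234 in all (234 without Puf1).

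Genes that Puf1 and Puf2 both ranked above the others, 12 of 91, numbered 8 of 35 with the 50% strongest sites and 9 of 26 with equal sites. Those above in Puf4 and Puf5, 24 of 91, numbered 6 and 4, so the order of the 2 counts turned round. Without each library the counts were 32 to 63 for Puf1 and Puf2 and 44 to 90 for Puf4 and Puf5, over larger classes. With equal sites the median RPKM was 439 in the Puf1 and Puf2 class and 392 in the Puf4 and Puf5 class, whose median gene length was 1107 nt, and 8 and 12 lists had a member in the Puf1 and Puf2 class and in the Puf4 and Puf5 class, against 4 and 19.

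The site share of the 3' UTR (Puf1 and Puf2 minus Puf4 and Puf5, -6.18 points) turned to 0.35 points with the 50% strongest sites and to 8.34 without Puf5, and ran from -20.7 to 8.34 over the libraries left out. That of the CDS (3.38 points) turned to -8.55 with the 50% strongest sites, -3.33 without Puf2 and -13.6 without Puf5, and ran from -13.6 to 20.3. The 5' UTR share by RPM kept its direction under every alternative run, from 10.6 to 13.5 points, and that of the 3' UTR from -19.9 to -9.38 without each library. The causes were not tested. An overlap of 50% of both sites lowered all 12 site overlap shares. Wider site bounds for motifs were not run. Read totals are unknown, so no value has a counting error of its own.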
